A study of Mus musculus with 3 samples.

Results

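The stefin A cluster comprised 6 genes, Stfa1, Stfa2, Stfa3, Stfa2l1, Cstdc4 and Csta2, which were taken by symbol from the 56980 genes listed in each count matrix. Each symbol matched 1 listed gene, and the identifiers were ENSMUSG00000071562, ENSMUSG00000022902, ENSMUSG00000054905, ENSMUSG00000059657, ENSMUSG00000079597 and ENSMUSG00000095620 in that order. The genes had been picked because their counts differed between these libraries, so the differences between libraries given here are descriptions and carry no test. Bone marrow nucleated cells (BMNCs) of male C57BL/6 mice, whose age was not given in the sources used here, were profiled by droplet single-cell RNA sequencing at 14 days post-irradiation (DPI). The Control group was not irradiated, the IR group received 6.0 Gy of gamma rays and solvent, and the IR+CBD group received 6.0 Gy and intraperitoneal cannabidiol (CBD, a non-psychoactive compound of Cannabis) before and after irradiation. Cells of 3 mice were pooled into 1 library per group, so no spread between mice can be given and group and library cannot be told apart. The Lin-Kit+ (progenitor), Lin-Kit- and Lin+ (mature lineage) cells had been sorted and remixed at 5:4:1, so shares of cells refer to this mix and not to the marrow.

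Stefins are small inhibitors that stay inside the cell and block papain-like cysteine proteases such as cathepsins B, H, L and S by occupying their active site cleft. Mice carry an expanded array of stefin A genes on chromosome 16 where humans have the single gene CSTA, and the array is known for expression in neutrophils and their precursors. Neutrophils pass through stages in the marrow that are told apart by the granule genes they transcribe, from Mpo and Elane of the primary granules through Fcnb, Camp and Ltf of the later granules to Retnlg and Cxcr2 of mature cells.

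The promoters of the 6 genes are shown because 5 of them share a stretch of letters just before the start of transcription that the sixth lacks. All 6 were matched by symbol in the RefSeq promoter table of build GRCm38.p6, and the 150 bases before each start are printed 5′ to 3′ on the strand of the gene, with the shared 13 bases in capitals.
Stfa2l1 (chr16:36156661-36156810, + strand): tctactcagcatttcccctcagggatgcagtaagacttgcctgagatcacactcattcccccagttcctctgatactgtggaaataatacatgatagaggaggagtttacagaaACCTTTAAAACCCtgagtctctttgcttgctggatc
Cstdc4 (chr16:36184062-36184211, + strand): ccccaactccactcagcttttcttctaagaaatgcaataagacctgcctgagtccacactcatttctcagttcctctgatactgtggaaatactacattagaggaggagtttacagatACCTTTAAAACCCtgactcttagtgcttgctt
Stfa1 (chr16:36276998-36277147, + strand): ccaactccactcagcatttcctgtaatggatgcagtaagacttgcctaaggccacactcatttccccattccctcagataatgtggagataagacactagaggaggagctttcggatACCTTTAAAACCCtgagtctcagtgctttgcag
Stfa2 (chr16:36408364-36408513, - strand): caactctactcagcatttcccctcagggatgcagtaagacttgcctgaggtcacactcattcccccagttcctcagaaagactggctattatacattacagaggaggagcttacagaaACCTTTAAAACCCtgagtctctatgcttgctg
Stfa3 (chr16:36455393-36455542, - strand): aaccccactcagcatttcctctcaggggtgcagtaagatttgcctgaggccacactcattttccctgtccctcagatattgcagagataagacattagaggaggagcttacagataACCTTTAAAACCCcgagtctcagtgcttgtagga
Csta2 (chr16:36221412-36221561, + strand): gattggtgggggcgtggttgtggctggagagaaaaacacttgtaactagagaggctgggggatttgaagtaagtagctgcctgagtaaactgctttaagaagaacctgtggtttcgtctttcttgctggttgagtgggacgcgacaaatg
The letters ACCTTTAAAACCC, the longest run found in 5 of the 6 promoters, began 32 to 36 bases before the start in Stfa2l1, Cstdc4, Stfa1, Stfa2 and Stfa3. Since they were picked from these sequences, their rarity is a description: of 32851 promoters, searched over the 250 bases before the start, 8 (0.0244%) held them on either strand, and 7 of the 8 belonged to the array (the 5 members, Csta3 and a second start of Cstdc3). The shorter TTTAAA inside them was in 5 of the 6 members and in 12.1% of all promoters, while TATAAA was in 0 of the 6 and in 12.4% of all. The C/EBP letters TTGCNNAA were found in the promoter of Stfa1 only among the 6 (9.56% of all promoters), the STAT letters TTCNNNGAA in Cstdc4 only (7.02%), and the PU.1 core GAGGAAGT in none of the 6 (2.44%). Over 250 bases, the promoters of the 5 genes with the shared stretch were 68.7% to 89.4% identical to each other, with Stfa2l1 and Stfa2 the closest pair, whereas the Csta2 promoter was 45.3% to 49.2% identical to them. Csta2 stood apart from the other members in promoter sequence, and it also had the lowest counts of the 6. Those counts were 33, 116 and 172 over all cells in Control, IR and IR+CBD. Csta3 and Cstdc3 (second start) held the shared stretch, yet counted only 17, 27 and 36 and 0, 4 and 3. Cstdc5, whose listed promoter ended inside the stretch and was scored as lacking it, counted 1063, 2893 and 3447. Whether the stretch bears on the counts was not tested.

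The deposited matrices held 12200 Control, 11951 IR and 11884 IR+CBD barcodes with 199383228, 206932522 and 177806843 UMIs. A UMI (unique molecular identifier) marks a captured RNA molecule, so that copies of it made by PCR are counted once. Barcodes with at least 200 genes and at most 5% mitochondrial UMIs were kept, which left 10674, 10345 and 10273 cells with a median of 12480, 14211 and 12502 UMIs. The libraries shared 35, 41 and 51 barcode sequences pair by pair. Levels are given in CPM, the UMIs of a gene summed over cells per 1000000 UMIs of the same cells, and since UMIs were read from the 3′ end they were not divided by gene length. Intervals are exact 95% intervals that cover counting error only.

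In all kept cells, the 6 genes together took 47.1, 61.7 and 94.99 CPM in the Control, IR and IR+CBD libraries. Cstdc4, the most abundant member, had 15.8, 20.8 and 26.1 CPM in Control, IR and IR+CBD. Stfa2l1 had 13.5, 17.1 and 22.4 CPM in the same order. Stfa1 had 10.2, 16.6 and 25.8 CPM. As given, these 3 genes were lowest in Control and highest in IR+CBD, but for Stfa1 the ratio of IR over Control turned from 1.63 to 0.915 without predicted doublets and to 0.952 without the 10 cells of each library highest in it. Stfa2 had 3.99, 3.86 and 11.1 CPM, and Stfa3 had 3.41, 2.78 and 8.57 CPM, so both were highest in IR+CBD. IR over Control was 0.968 for Stfa2, with an interval (0.875 to 1.07) that held 1, and 0.814 (0.726 to 0.912) for Stfa3, which was 0.661 without predicted doublets, 0.601 without its 10 highest cells and 1.05 in cells thinned to 2000 UMIs. Csta2 rested on 33, 116 and 172 UMIs, or 0.169, 0.573 and 0.992 CPM. Between IR+CBD and IR, 2 of the 6 members (Stfa2 at 2.87-fold and Stfa3 at 3.09-fold) were higher by at least 2-fold, where 0.295% of the 17625 genes with at least 100 UMIs were. Between IR and Control, 1 of 6 was higher by 2-fold (Csta2, 3.38-fold, interval 2.28 to 5.15), where 1.86% of genes were, and between IR+CBD and Control 4 of 6 were, where 1.22% of genes were. None of the 6 was lower by 2-fold, where 0.681% of genes were between IR+CBD and IR, 3.22% between IR and Control and 2.62% between IR+CBD and Control.

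The counts lay mainly in granulocytes. Cells were gated on raw UMIs of marker genes: Mpo (myeloperoxidase) of at least 5, Fcnb (ficolin B) of at least 10, Ltf (lactoferrin) of at least 20 with Ly6g of at least 1, Retnlg (resistin-like gamma) of at least 5, Csf1r with Ccr2 for monocytes, Klf1 of at least 2 for erythroid cells and Cd79a of at least 2 for B cells. A cell could enter several gates. The Retnlg gate held 1004 Control, 1076 IR and 1215 IR+CBD cells, or 9.41% (8.86 to 9.98), 10.4% (9.819 to 11.005) and 11.8% (11.2 to 12.5) of kept cells, and no marker of its 6 mature neutrophil markers was at 0. These mature markers summed to 14440 to 16200 CPM, neutrophil precursor markers to 52250 to 55880 and granulocyte-monocyte progenitor markers to 3265 to 4404. In Control, IR and IR+CBD, 522, 646 and 727 Retnlg cells also passed another granulocyte gate, so the gate spanned stages. Erythroid markers in this gate summed to between 850 and 5207 CPM over the libraries and B lineage markers to between 338 and 456. All 7 erythroid markers were lowest in Control, with Hbb-bs at 398, 3289 and 2454 CPM. The part of erythroid and B lineage RNA in the results was not tested. Among Retnlg cells the 6 members reached 657, 635 and 1044 CPM. In B cells outside the Fcnb, Ltf and Retnlg gates they reached 1.06, 0.835 and 1.13 CPM, with 0.814%, 0.704% and 0.804% of 3442, 3979 and 3359 cells holding a UMI. In erythroid cells outside those gates they reached 0.512, 0.543 and 0.605 CPM. Mpo cells were not left out of these B and erythroid cells. Both values were taken as background, and no cell of either kind held 5 UMIs of the members, which in the B cells allows a share of up to 0.107%, 0.0927% and 0.110%. Mpo cells outside the later granulocyte gates lay near that level, with 0.749, 0.430 and 1.99 CPM. The monocyte gate held 5.63, 8.03 and 11.4 CPM, and 3.45, 5.97 and 4.76 without the cell of each library with the most member UMIs. Of the Retnlg cells, 79, 103 and 107 also passed the Klf1 or Cd79a gate, so that these gates taken whole showed members too.

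**Figure D1:**
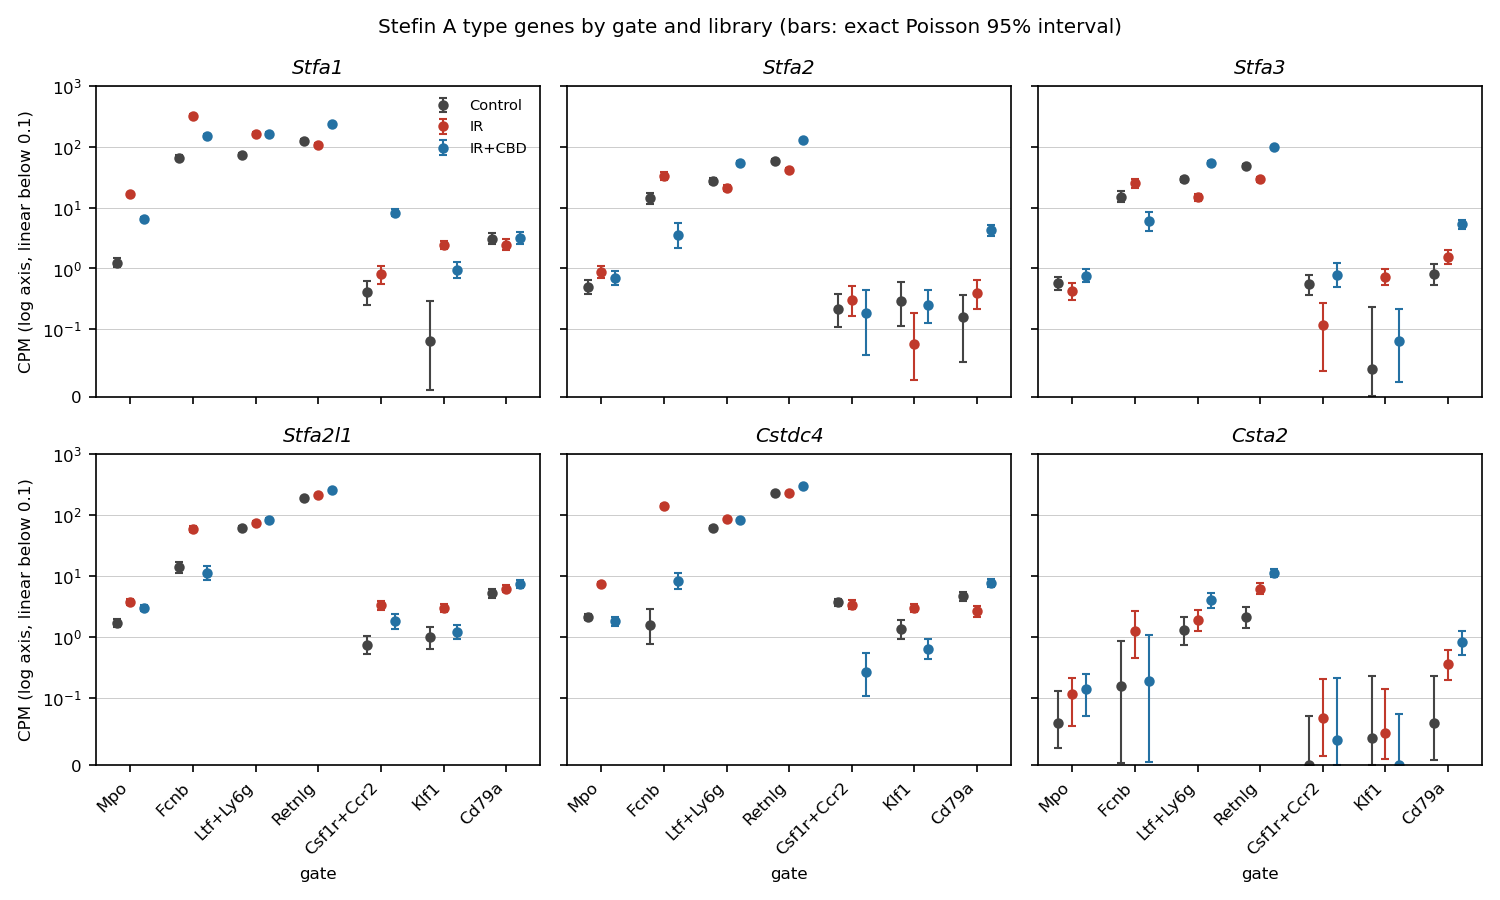
Level of each stefin A type gene (vertical axis, CPM, log scale above 0.1 and linear below) in each gate (horizontal axis) for Control (grey), IR (red) and IR+CBD (blue), with exact Poisson 95% intervals. All 6 genes were highest in the Retnlg gate except Stfa1 in IR, whose Fcnb and Ltf points rest largely on 1 cell, and IR+CBD lay highest in the Retnlg gate for each gene.

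Within the Retnlg gate the members fell into 3 kinds of pattern. Taken over the whole gate, Stfa1, Stfa2 and Stfa3 were lower in IR than in Control and about 2 to 3 times as high in IR+CBD as in IR. In the part of the gate with few Ltf UMIs, given by stage below, Stfa1 and Stfa2 were instead higher in IR than in Control. Stfa1 counted 1668 Control, 1613 IR and 3514 IR+CBD UMIs, or 127, 109 and 241 CPM. Stfa2 had 57.8, 41.5 and 130 CPM in the same order. Stfa3 had 48.3, 29.5 and 98.3 CPM. IR+CBD over IR was 2.21 for Stfa1 (interval 2.09 to 2.35), 3.12 for Stfa2 (2.85 to 3.42) and 3.34 for Stfa3 (2.995 to 3.72), and without the cell of each library with the most UMIs of the gene (the highest cell) the ratios were 2.27, 3.17 and 3.396. IR over Control was 0.858, 0.719 (0.645 to 0.80) and 0.610 (0.539 to 0.690). Stfa2l1 and Cstdc4 were more abundant and moved less. Stfa2l1 had 193, 213 and 260 CPM, and Cstdc4 had 229, 236 and 305 CPM. Their IR+CBD over IR ratios were 1.22 (1.16 to 1.28) and 1.29 (1.23 to 1.35), and for Cstdc4 the interval of IR over Control held 1 (0.983 to 1.08). Csta2, with 2.13, 6.20 and 11.2 CPM from 28, 92 and 164 UMIs, was lowest in Control, at an IR over Control ratio of 2.92 (1.89 to 4.63), which was 4.89 in thinned cells and 1.32 without the 10 highest cells of each library, below 2-fold. In this gate 3 of the 6 members were higher by at least 2-fold in IR+CBD than in IR, where 0.16% of 9988 genes were (16 genes), 0 were lower, where 0.671% of genes were, and the median log2 ratio was 1.00 over the members and -0.04 over all genes. Between IR and Control 1 of 6 (Csta2) was higher by 2-fold, where 1.95% of genes were, and 0 of 6 were lower, where 0.524% of genes were. Between IR+CBD and Control 3 of 6 (Stfa2, Stfa3 and Csta2) were higher and 0 lower, where 0.951% and 0.556% of genes were.

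Both the number of cells with high counts and the UMIs in each of them were larger in IR+CBD than in IR for Stfa1, Stfa2 and Stfa3. In the Retnlg gate, cells with at least 5 UMIs of Stfa1 numbered 52, 47 and 77 in the Control, IR and IR+CBD libraries, which is 5.18% (interval 3.89 to 6.74), 4.37% (3.23 to 5.77) and 6.34% (5.03 to 7.86) of the gate. For Stfa2 there were 33, 31 and 57 such cells, or 3.29% (2.27 to 4.59), 2.88% (1.97 to 4.07) and 4.69% (3.57 to 6.04). For Stfa3 there were 27, 17 and 34, or 2.69% (1.78 to 3.89), 1.58% (0.923 to 2.52) and 2.80% (1.95 to 3.89). Stfa2l1 passed the minimum in 13.7%, 15.7% and 15.5% of cells, Cstdc4 in 11.1%, 10.97% and 12.2%, and Csta2 in 0%, 0.372% and 0.658%. For each of the 6 genes the intervals overlapped between every pair of libraries, which does not show that the shares were alike. In the cells past the minimum, the mean count of Stfa3 was 19.8, 21.9 and 38.9 UMIs, that of Stfa2 21.1, 17.7 and 32.1, and that of Stfa1 30.4, 32.4 and 44.3. The medians were closer together for Stfa1, at 21.5, 17.0 and 23.0 UMIs, and for Stfa2, at 16, 10 and 15, than for Stfa3, at 12, 15 and 21.5. From IR to IR+CBD the share of such cells was 1.45, 1.63 and 1.77 times as high for Stfa1, Stfa2 and Stfa3, and the mean count in them 1.37, 1.81 and 1.77 times. For Stfa2l1 these factors were 0.985 and 1.07 and for Cstdc4 1.11 and 1.02. Without the 10 cells of each library with the most UMIs of the gene in question, the CPM of Stfa1, Stfa2 and Stfa3 were 2.76, 3.25 and 4.18 times as high in IR+CBD as in IR. IR had fewer cells past the minimum for each of these genes. Removing 10 cells took a larger part of them there, which can raise the ratio.

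Few cells held most of the transcripts. In the Retnlg gate, 50% of all Stfa3 UMIs lay in 7 Control, 5 IR and 7 IR+CBD cells, and 50% of Stfa2 UMIs in 8 cells in each library. For Stfa1 the numbers were 10, 9 and 12. Stfa2l1 and Cstdc4 were spread more widely, with 40, 49 and 49 cells and 26, 30 and 31 cells. The highest cells gave a large part of their RNA to the array. The leading Control cell carried 407 member UMIs of its 10913 (3.73%), and 1 IR+CBD cell carried 591 of 9922 (5.96%). The counting intervals of the CPM treat every UMI as independent and are too narrow where so few cells decide a value, so the shares of cells are given beside them. When every cell was thinned to 2000 UMIs, the share with a Stfa2 UMI was 4.81%, 3.37% and 5.51% against 6.97%, 6.32% and 7.82% unthinned, leaving out 7, 7 and 17 shallower cells of the gate.

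**Figure D2:**
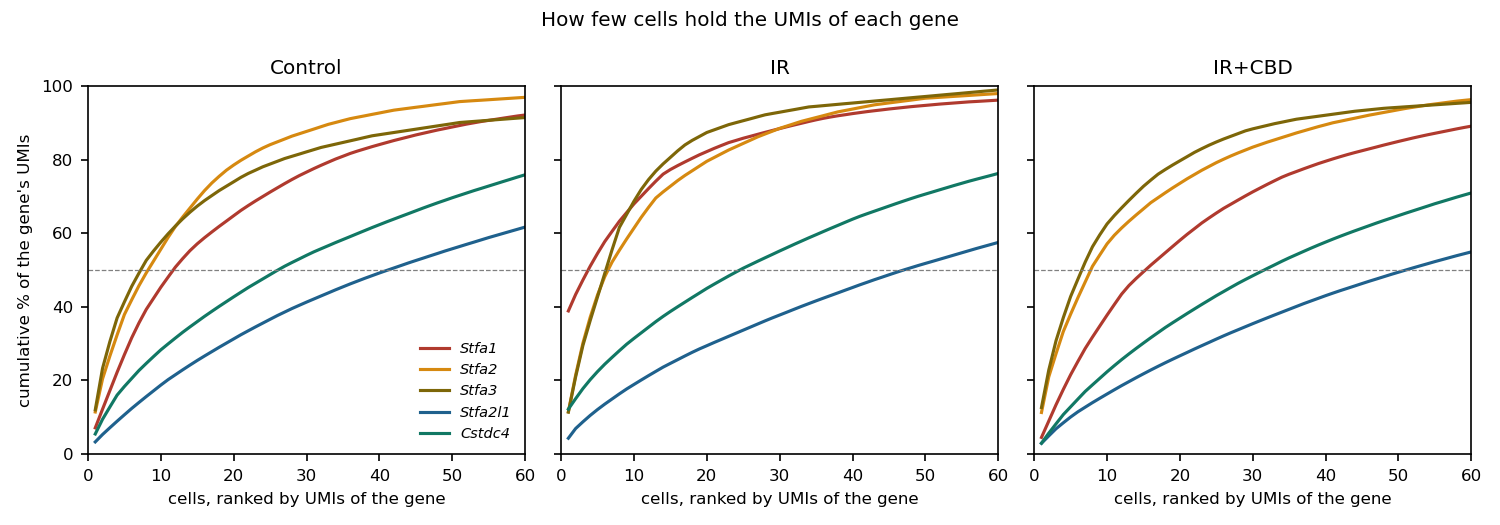
Cumulative share of the UMIs of each gene (vertical axis, percent) over kept cells ranked by their UMIs of that gene (horizontal axis, number of cells) in the 3 libraries, with a dashed line at 50%. Stfa2 and Stfa3 reached the line within 9 cells in every library, Cstdc4 at 25 to 32 and Stfa2l1 at 42 to 51, and the Stfa1 line of IR started at 38.9% because 1 cell held that share.

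Stfa2l1 and Cstdc4 were concentrated in the most mature granulocytes, whereas Stfa1 was already counted in earlier ones. Late granulocytes were put into stages without overlap, namely cells past the Fcnb gate, cells past the Ltf gate, and Retnlg cells with at least 20 or under 20 Ltf UMIs, the latest gate taking the cell and cells of the Klf1 or Cd79a gate being left out. The last division was chosen after the data were seen, and the median depth was 18260 to 25390 UMIs in the Fcnb stage and 5788 to 6512 in the last. In the Fcnb stage 4 Control, 4 IR and 6 IR+CBD cells (4.71%, 5.00% and 5.77%) held at least 5 UMIs of Stfa1, while 0 cells did so for Stfa2, Stfa3 or Stfa2l1 in any library and 0, 1 and 1 did for Cstdc4. With so few cells the intervals overlapped, since 0 of 85, 80 and 104 cells allows a Stfa2 share of up to 4.25%, 4.51% and 3.49% and the Stfa1 intervals began at 1.30%, 1.38% and 2.15%. In the most mature stage Stfa1 reached 5.90%, 6.60% and 8.09%, within the intervals of the Fcnb stage. The deeper Fcnb cells reach a fixed minimum of 5 UMIs more easily, which limits this comparison. Stfa2l1 instead went from 7.71%, 7.09% and 7.67% of Retnlg cells with Ltf to 20.1% (16.5 to 24.1), 27.4% (23.1 to 32.0) and 26.1% (22.3 to 30.3) of those with little Ltf. Cstdc4 went from 3.43%, 3.55% and 4.63% to 18.8%, 22.3% and 22.4%. Both steps exceeded the counting intervals in every library, although the later cells had fewer UMIs. Stfa2 and Stfa3 stayed lower, at 4.15%, 5.87% and 6.43% and at 2.84%, 2.69% and 3.32% in the last stage.

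**Figure D3:**
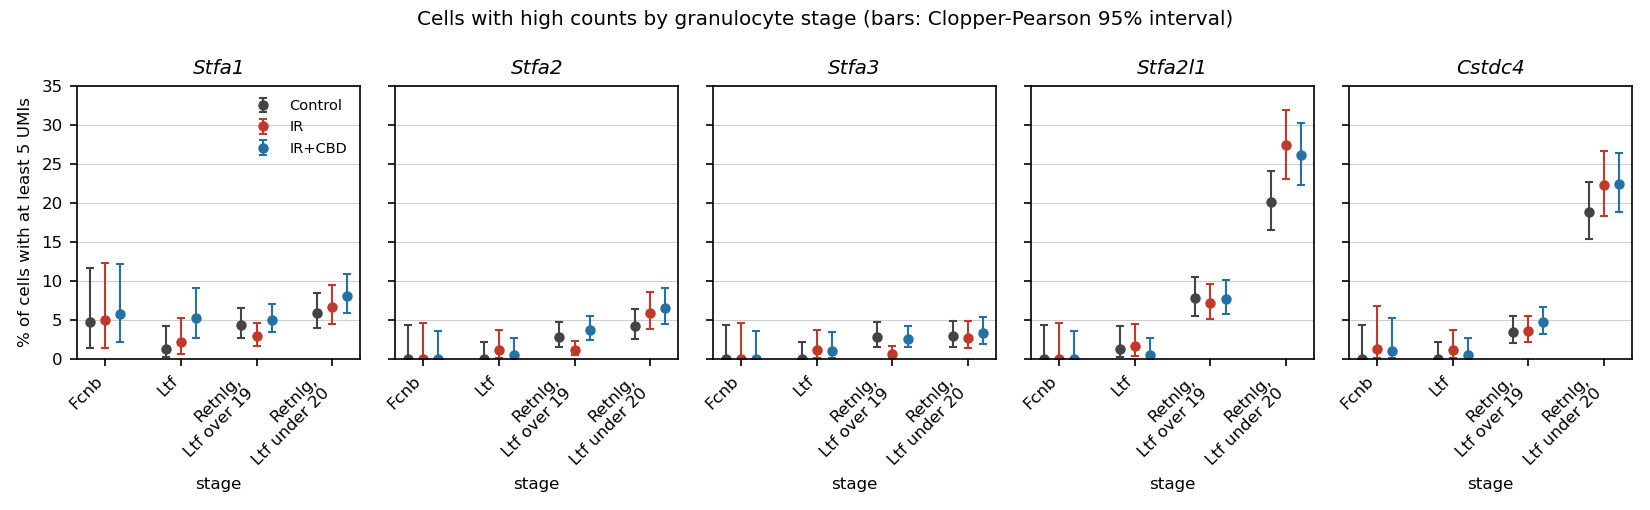
Share of cells with at least 5 UMIs of a gene (vertical axis, percent) in 4 granulocyte stages without overlap (horizontal axis) for Control (grey), IR (red) and IR+CBD (blue), with Clopper-Pearson 95% intervals. Stfa1 lay between 1.18% and 8.09% in every stage, whereas Stfa2l1 and Cstdc4 lay at or below 1.55% in the Fcnb and Ltf stages and above 18% in the last.

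The order of the libraries differed by stage. In Retnlg cells with Ltf the 6 genes summed to 406, 260 and 619 CPM, IR being lowest, and Stfa2 was at 51.4, 14.4 and 75.7 CPM and Stfa3 at 45.9, 14.0 and 68.7. In Retnlg cells with little Ltf the sum was 1458, 1948 and 2625 CPM, Control being lowest, with Stfa2 at 107, 143 and 324 CPM, Stfa3 at 79.6, 77.5 and 207, and Stfa1 at 236, 258 and 469. IR+CBD was highest in both stages for each of the 3. The Stfa3 value of IR in the former stage rested on 3 cells with at least 5 UMIs. After thinning, cells with a UMI of any member made up 20.6%, 19.01% and 21.4% of the former stage and 44.6%, 53.4% and 51.2% of the latter.

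A single IR cell decided several values outside the Retnlg gate. It held 2076 member UMIs of 24730 (8.40% of its RNA), with 1307 of Stfa1, 514 of Cstdc4, 149 of Stfa2l1, 68 of Stfa2, 34 of Stfa3 and 4 of Csta2. The cell also counted 157 Mpo, 26 Fcnb, 79 Ltf, 1 Ly6g and 1 Retnlg UMIs, and thus entered the Mpo, Fcnb and Ltf gates but not the Retnlg gate. With it, Stfa1 stood at 66.1, 327 and 150 CPM in the Fcnb gate and at 74.2, 165 and 165 in the Ltf gate, and without the highest cell of each library IR stood at 59.6 and 69.0 CPM. Over all kept cells, the Stfa1 ratio of IR over Control was 1.63 with the highest cells and 1.07 without them, and that of IR+CBD over IR 1.56 and 2.43. The sum of the 6 genes, 1.31 times as high in IR as in Control over all cells, was 1.14 times as high without them. In the Ltf gate, Stfa2 at 27.7, 21.1 and 54.9 CPM and Stfa3 at 29.1, 14.8 and 54.5 CPM were highest in IR+CBD. Between IR+CBD and IR 2 of the 5 members with at least 100 UMIs were 2-fold higher there (Stfa2 and Stfa3), where 0.117% of genes were. With gates that do not overlap, both turned direction, from 2.60 to 0.117 for Stfa2 and from 3.68 to 0.501 for Stfa3. In the Fcnb gate the IR+CBD over IR ratio of Stfa1 was 0.458, and 1.89 without the highest cells. The Stfa2 value of Control in that gate, 14.4 CPM, was 0.472 without 1 cell that held 89 of its 92 UMIs.

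Cells tended to be dominated by 1 member at a time. Of the late granulocytes, taken as cells past the Fcnb, Ltf or Retnlg gate, 267 of 1277 Control (20.9%, 18.7 to 23.2), 292 of 1372 IR (21.3%, 19.1 to 23.6) and 359 of 1558 IR+CBD cells (23.04%, 20.97 to 25.2) held at least 5 UMIs of any 1 member. Of these cells 69.3%, 73.3% and 68.0% passed the minimum for 1 member alone, and the leading member gave a median of 90.5%, 97.8% and 92.3% of the member UMIs in the cell. Cells with 3 or more such members numbered 15, 27 and 38, or 5.62% (3.18 to 9.10), 9.25% (6.18 to 13.2) and 10.6% (7.6 to 14.2) of them. All 6 were found together in 1 cell of IR+CBD. These counts cover the 6 members only and leave out Cstdc5 of the same array. Of the late granulocytes high in Stfa1, 11 of 60, 12 of 56 and 31 of 95 also held at least 5 UMIs of Cstdc5.

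**Figure D4:**
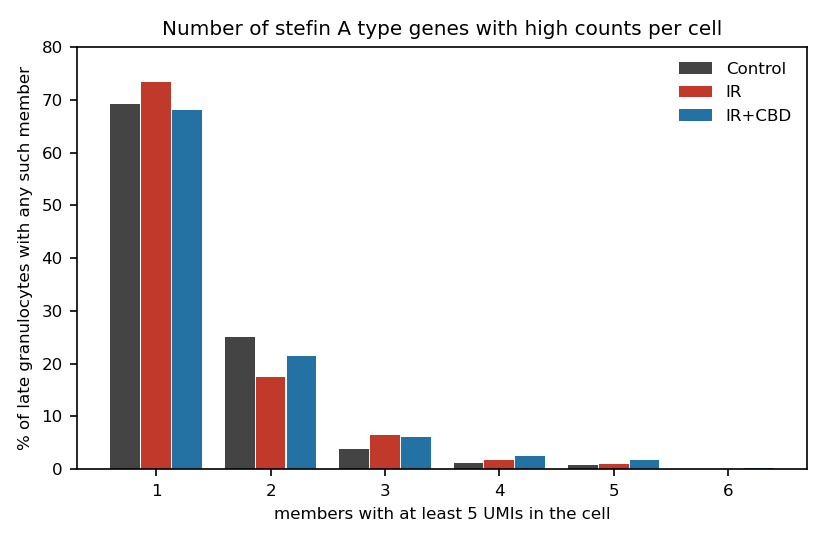
Share of the late granulocytes with a highly counted member (vertical axis, percent of 267 Control, 292 IR and 359 IR+CBD cells) by the number of members with at least 5 UMIs in the cell (horizontal axis). Cells with 1 such member made up 68.0% to 73.3% in the 3 libraries, and 1 cell in all had 6.

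High counts of different members were nevertheless found together more often than their shares in the same stage for most pairs. In Retnlg cells with little Ltf, 40.7%, 48.4% and 45.4% of the cells high in Cstdc4 were also high in Stfa2l1, its neighbour on the chromosome, against 20.1%, 27.4% and 26.1% of all cells of that stage. Of the 13 Control, 11 IR and 16 IR+CBD cells high in Stfa3, 4, 7 and 10 were high in Stfa2, the next gene of the array, against 4.15%, 5.87% and 6.43% of all. Genes further apart were found together too. Of the cells high in Stfa2, 12 of 19, 12 of 24 and 21 of 31 were also high in Stfa2l1 at the other end. Of all cells of the stage, 20.1%, 27.4% and 26.1% were high in Stfa2l1. Whether distance along the array orders these shares was not tested. The exception among the pairs of the 5 more abundant members was in IR, where 2 of 11 cells high in Stfa3 were high in Stfa2l1 (18.2%, against 27.4% of all). Sequence likeness limits these counts. Over the last 300 bases of their transcripts Stfa2l1 and Stfa2 were 72.0% identical, Cstdc4 and Csta2 92.7%, and Stfa1 and Cstdc5, a further gene of the array, 98.7%, and the longest runs these pairs shared within the transcripts were 97, 134 and 128 bases. Reads from these pairs could have been split or dropped by the counting, so the division between Stfa1 and Cstdc5 and between Cstdc4 and Csta2 is uncertain.

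Retnlg cells with at least 5 UMIs of a member had more transcripts of mature neutrophil genes than Retnlg cells with none. The former numbered 258, 282 and 340 cells with median depths of 8034, 8513 and 7984 UMIs, and the latter 547, 575 and 647 cells with 8863, 10753 and 9114. Of 18 mature granulocyte genes, 9 were higher by at least 1.5-fold in all 3 libraries and 0 lower, where 1.66% of 7189 genes were higher and 0.389% lower. The C-C chemokine Ccl6 was 2.10, 3.19 and 2.79 times as high in Control, IR and IR+CBD, the interleukin gene Il1b 2.36, 3.32 and 2.92 times, the chemokine receptor gene Cxcr2 1.71, 2.15 and 1.997 times, and Wfdc17, of the whey acidic protein family of small inhibitors, 2.92, 6.57 and 3.81 times. Csf3r, Clec4d and Trem1, genes of surface receptors of neutrophils, were 1.54 to 3.14 times as high over the libraries. Slpi, which encodes a secreted inhibitor of serine proteases, was 1.63, 1.78 and 1.74 times as high. Retnlg itself, which set the gate, was 1.81, 2.37 and 2.002 times as high. Of 13 secondary and tertiary granule genes 0 were higher and 3 lower, namely Camp (cathelicidin) at 0.574, 0.369 and 0.445, Ltf at 0.596, 0.460 and 0.495 and Ngp at 0.666, 0.454 and 0.528. None of 5 primary granule genes and none of 6 papain-like protease genes passed the fold in all 3 libraries. Cstdc5 had the highest ratios of the listed genes at 22.2, 26.1 and 39.3, with the likeness to Stfa1 given above. These ratios compare cells within a library, the cells share their library, and no test was made.

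**Figure D5:**
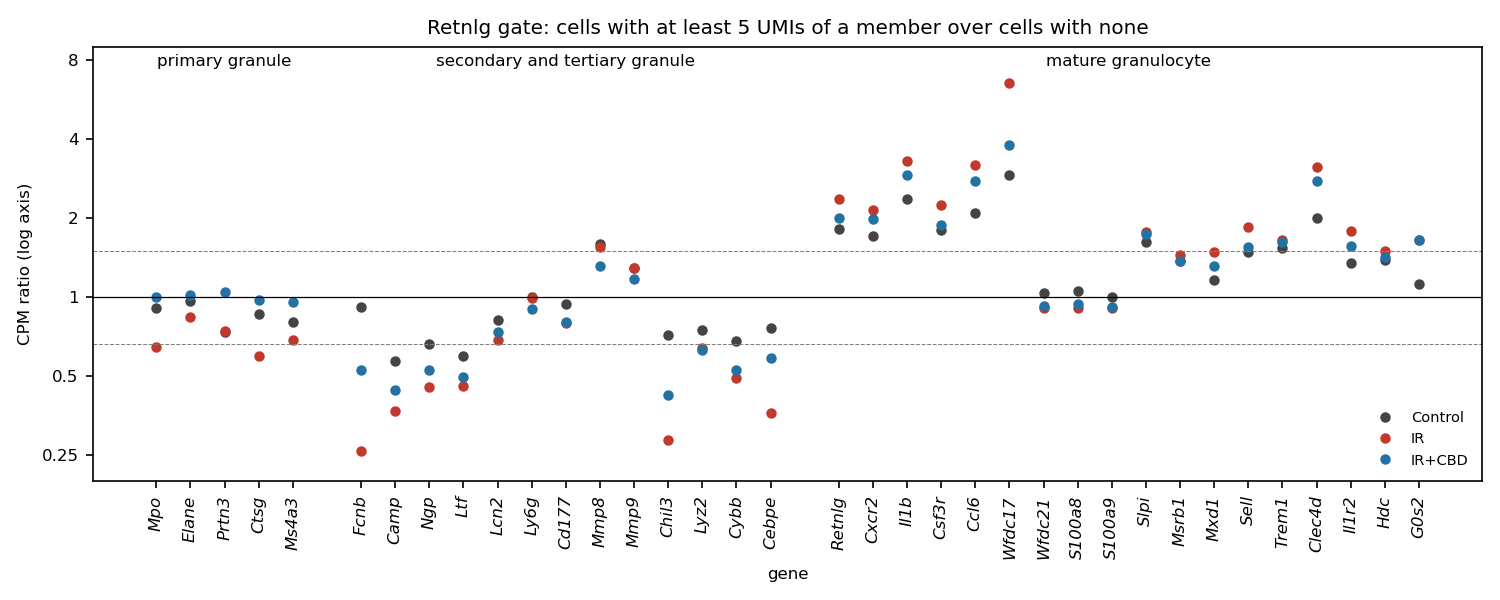
Ratio of CPM between Retnlg gate cells with at least 5 UMIs of a member and those with none (vertical axis, log scale, dashed lines at 1.5-fold) for primary, later granule and mature granulocyte genes (horizontal axis) in the 3 libraries. Mature genes such as Il1b, Ccl6 and Clec4d lay above 1.5 in each library and Camp, Ltf and Ngp below 1.

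Papain-like proteases, the kind that stefins inhibit, were measured beside the members. The list also held the legumain gene Lgmn, which is not papain-like. Among Retnlg cells the 8 listed protease genes with at least 100 UMIs, Lgmn included, had a median IR+CBD over IR ratio of 0.893. The range was from 0.319 for Ctss to 1.24 for Ctsl (cathepsin L). The ratio of Stfa2l1 (1.22) lay within that range. None was 2-fold higher and 1 was lower, where 0.16% and 0.671% of all genes were, so the count of 0 is near the background. The lower gene was Ctss (cathepsin S), at 19.4, 27.9 and 8.90 CPM. Ctsl stood at 57.3, 58.04 and 71.96 CPM. Ctsb stood at 76.6, 80.3 and 74.7 CPM, Ctsz at 108, 99.2 and 85.9, and Ctsc, which activates the serine proteases of neutrophil granules, at 55.8, 40.2 and 31.9. Over all cells 2 of 10 of the listed protease genes were 2-fold lower in IR than in Control, where 3.22% of all genes were. These were Ctsf at 1.75, 0.242 and 0.208 CPM and Ctsw at 4.02, 1.79 and 1.94. Of the other cystatins, the ubiquitous cystatin C gene Cst3 stood at 575, 575 and 549 CPM over all cells, Cstb (stefin B) at 83.7, 78.3 and 78.1, and Cst7 (cystatin F, found in blood cells) at 109, 81.3 and 94.1. Of 4 such genes with at least 100 UMIs, 1 was 2-fold higher in IR+CBD than in IR in the Retnlg gate, where 0.16% of all genes were. This was again Cstdc5, at 63.3, 75.8 and 202 CPM. The remaining genes of the array were close to absent over all cells, Csta3 with 17, 27 and 36 UMIs, Cstdc6 with 11, 10 and 31, Csta1 with 1, 3 and 2 and Cstdc3 with 0, 4 and 3. The 18 mature granulocyte genes had a median IR+CBD over IR ratio of 1.02 in the Retnlg gate, from 0.884 for Il1r2 to 1.39 for Wfdc17, and the median over the members was 2.01. That none of the 18 passed 2-fold is near the background of 0.16%.

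Across the 7 gates of the 3 libraries, the 10 genes whose level followed the sum of the 6 members most closely had r of 0.967 to 0.975 on log2(CPM + 1). Padi4, whose enzyme converts arginine in histones to citrulline, had r = 0.975 over 21 sums, G0s2, an inhibitor of lipid breakdown, 0.973, Slc35a5 0.970 and C5ar1, the receptor of complement C5a, 0.969, of 12463 genes compared. The other 6 were Rnf144a, Med31, F730016J06Rik, 9830107B12Rik and 2 genes listed by identifier only. The 21 points share cells and libraries, and the value is a description. Among Retnlg cells Padi4 stood at 117, 126 and 129 CPM, G0s2 at 522, 679 and 693 and C5ar1 at 155, 151 and 162, values close together in IR+CBD and IR.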

How the data were processed

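The authors deposited matrices of UMI counts per gene and cell, 1 library per group, with no normalization. The labels name Cell Ranger 4.0 and GRCm39, and the file headers Cell Ranger 7.0.1. Predicted doublets, which the authors removed with DoubletFinder, were kept here, and Scrublet in scanpy 1.11.5 was an alternative. CPM, shares and ratios were computed from the counts in Python 3.11.15 with numpy 2.4.6, scipy 1.17.1, pandas 2.3.3 and matplotlib 3.10.9, and promoters and transcripts were aligned with Biopython 1.88. CPM carry exact Poisson, shares Clopper-Pearson and ratios conditional binomial intervals, and the ratio code was tested on simulated data. No test between groups was made, since each group is 1 library. The members and all gene lists were chosen with earlier results of these data known. Named genes were the members, other cystatins, papain-like proteases with legumain, and chromosomal neighbours within 10 genes. The 10 genes most like the members were named too, as were granulocyte genes past 2-fold or needed to check a gate. The granulocyte genes and others named for cells with and without members, and the minimum of 5 UMIs for such cells, were chosen after the values were seen. Neighbours were ordered by the GENCODE M21 annotation of GRCm38. Alternatives changed the filters, gate minimums, overlap of gates, doublets, depth, minimum count and fold.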

Additional observations from a re-analysis of the deposited data

Results flagged for a closer look

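In the barcodes removed by the filters on genes and mitochondrial share, the 6 genes summed to 27.6 CPM in IR and 31.8 in IR+CBD against 17.4 in Control, from 126, 138 and 79 UMIs. These cells were in no comparison above.

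The IR+CBD over IR ratio went in opposite directions in different gates, and the difference between gates was not tested. For Stfa1 it was 0.458 in the Fcnb gate and 2.21 in the Retnlg gate, and without the highest cell of each library the former was 1.89. For Stfa2 it was 0.107 in the Fcnb gate, 2.60 in the Ltf gate and 3.12 in the Retnlg gate, and without the highest cells the first was 0.0750. For Stfa3 it was 0.241, 3.68 and 3.34, and without the highest cells the first was 0.185. The Fcnb values of Stfa2 rested on 164 IR and 19 IR+CBD UMIs and those of Stfa3 on 123 and 32. Of the 164 IR UMIs of Stfa2, single cells held 90 and 68, and of the 123 of Stfa3, single cells held 48, 36 and 34. Removing the highest cell alone left the other such cells in, so these ratios rest on few IR cells with or without it. No group had enough libraries for a check of samples that stand apart.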

How the results depend on the processing

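Of 607 ratios recomputed under the alternatives for 63 results, 400 stayed within the counting interval of the reported value, 201 left it, and 6 that had been past 2-fold changed direction. Minimums other than 5 UMIs for a highly counted cell, the removal of the highest cells and the division at 20 Ltf UMIs were chosen after seeing the data. No paired analysis was possible because each group is 1 library.

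All 6 changes of direction were in the Ltf gate. The recomputed ratios covered all cells and the Ltf and Retnlg gates, and only ratios past 2-fold could be counted as changed in direction. The Fcnb gate was not recomputed, and its Stfa1 ratio of IR+CBD over IR changed direction without the highest cells, as given above. Smaller ratios crossed 1 elsewhere, such as Stfa1 in IR over Control over all cells, from 1.63 to 0.915 without predicted doublets. Stfa1 in IR over Control was 2.23, but 0.896 without predicted doublets, 0.585 in thinned cells and 0.667 without the 10 highest cells. With gates that do not overlap, IR+CBD over IR fell from 2.60 to 0.117 for Stfa2, from 3.68 to 0.501 for Stfa3 and from 2.12 to 0.316 for Csta2. That alternative moves cells with Retnlg out of the Ltf gate and leaves few UMIs. It keeps the IR cell with 2076 member UMIs and the next highest IR cell, with 343, in the gate. These held 68 and 90 Stfa2 and 34 and 48 Stfa3 UMIs. Their part in the changes of direction was not tested.

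In the Retnlg gate, IR+CBD over IR kept its direction for Stfa2 (2.33 without doublets, 2.83 with exclusive gates, 2.23 in thinned cells), for Stfa3 (1.92 in thinned cells, 4.18 without the 10 highest cells) and for the sum of the 6 genes (1.64; 1.60 with exclusive gates, 1.59 with doubled gate minimums, 1.47 in thinned cells, 1.51 without the 10 highest cells). The sum in IR over Control, 0.966, was 0.909 without doublets and 1.01 with exclusive gates. Over all cells the sum in IR over Control, 1.31, was 0.9997 without doublets, 1.13 in thinned cells, 1.14 without the highest and 1.07 without the 10 highest cells, so that difference depended on few cells. The sum in IR+CBD over IR, 1.54, was 1.87, then 1.78 and 1.74 without the highest and 10 highest cells, and 1.31 with stages weighted as in Control. Scrublet removed the IR cell with 2076 member UMIs and the leading IR+CBD cell. The cause of the other shifts was not tested.

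The share of Retnlg cells with at least 5 UMIs of any 1 member was 25.7%, 26.2% and 28.0%, with 45.5%, 46.6% and 46.8% at 1 UMI and 11.3%, 11.7% and 12.7% at 20 UMIs. With a minimum of 20 UMIs in place of 100, or a fold of 1.5 in place of 2, the genes called over all cells in IR over Control went from 335 to 664 or 807 higher and from 579 to 1204 or 1513 lower, and in IR+CBD over IR from 52 to 353 or 303 higher and from 120 to 426 or 353 lower. In the Retnlg gate they went from 193 to 496 or 406 and from 52 to 347 or 280 in IR over Control, and from 16 to 214 or 107 and from 67 to 243 or 221 in IR+CBD over IR. Depth limits Csta2 and every Fcnb value of Stfa2 and Stfa3, and the IR values among the latter also rest on few cells.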

Other observations

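The flanks of the array held a gene with a larger difference between libraries than any member. Slc15a2, which encodes a peptide transporter, lies beyond Stfa3 and counted 1929 Control, 248 IR and 2096 IR+CBD UMIs over all cells, or 9.90, 1.23 and 12.1 CPM. IR over Control was 0.124 (0.108 to 0.141) and IR+CBD over IR was 9.86 (8.64 to 11.3). IR was lowest in each of the 7 gates, with 17.7, 2.08 and 26.2 CPM in the Cd79a gate, 6.30, 0.625 and 8.50 in the Mpo gate and 9.27, 1.75 and 8.97 in the Retnlg gate. Each group is 1 library, so the value has no replicate check.

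Of the other neighbours, Cd86, a costimulatory molecule of antigen-presenting cells, was lower in both irradiated libraries at 28.2, 12.98 and 15.5 CPM. Parp9 and Dtx3l, partners that are known as interferon-responsive genes and lie at the opposite flank, were highest in IR at 15.7, 28.6 and 16.7 CPM and at 17.5, 25.0 and 17.5 CPM.

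Further genes apart from the lists were higher by over 2-fold in all 3 libraries in Retnlg cells with at least 5 UMIs of a member than in those with none. Prok2, a secreted chemoattractant, was 2.66, 4.71 and 3.35 times as high, Il13ra1, a receptor subunit for interleukin 13, 2.49, 4.17 and 3.52 times, and H2-Q10, a class Ib MHC gene, 2.69, 3.51 and 3.13 times. The acute-phase gene Orm1 was lower at 0.543, 0.246 and 0.310. In the same comparison Chil3, a chitinase-like gene of immature neutrophils, stood at 0.721, 0.286 and 0.425 and the granule transcription factor gene Cebpe at 0.765, 0.364 and 0.588.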
